A study of Homo sapiens with 4 samples.

Results

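The FOXK2 peaks assigned to 10 Kruppel-like factor (KLF) genes, KLF2, KLF3, KLF4, KLF5, KLF6, KLF7, KLF9, KLF10, KLF11 and KLF13, were examined in OVCAR5, a human ovarian cancer cell line described as high-grade serous. A peak belonged to a KLF gene when the deposited annotation gave that gene as the nearest TSS, and a gene with no such row had no peak. All 10 symbols were found in the gene table, among 20052 protein-coding genes. The KLF genes had 21 of the 12471 peaks of replicate 1 and 43 of the 27281 peaks of replicate 2. FOXK2 chromatin immunoprecipitation was performed in 2 biological replicates of cultured OVCAR5 cells, with no treatment or genetic change in the labels, to find candidate targets of this forkhead factor. The replicates shared a single condition, so no comparison between conditions was possible. The matching input libraries were not analysed here.

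KLF proteins are zinc finger transcription factors that share a DNA-binding domain at the carboxyl end and recognise GC-rich and CACCC-type sequences. The amino end differs and recruits partners. KLF3 binds the corepressor CtBP, whereas KLF2, KLF4, KLF5, KLF6 and KLF7 act mostly as activators, in part through acetyltransferases, and KLF9, KLF10, KLF11 and KLF13 bind the corepressor SIN3A. In epithelia, KLF4 and KLF5 are known for their roles in differentiation and proliferation, and KLF4 is a pluripotency reprogramming factor. FOXK2 is a forkhead factor that recognises the heptamer TGTTTAC.

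Of the 18 KLF peaks found in both replicates, 8 held 1 copy of TGTTTAC within 100 bp of the peak centre, and these copies lay at 5 genes. They are shown because they are the exact forkhead letters at KLF genes that recurred in both lists. Each line gives the gene, the distance of its replicate 1 peak from the deposited TSS in bp (minus for upstream) and the hg38 sequence, read on the strand that spells TGTTTAC, with the heptamer in capitals.
KLF7 -15, chr2:207166188-207166214, minus strand: atgagcccccTGTTTACcttacatggt
KLF9 +567, chr9:70414021-70414047, plus strand: gattcaactcTGTTTACtttctccccc
KLF9 -6235, chr9:70420909-70420935, plus strand: tgtggtctccTGTTTACttccctcctc
KLF9 -55900, chr9:70470561-70470587, minus strand: ggcaaatgccTGTTTACtaatctgtgt
KLF6 +30362, chr10:3754910-3754936, plus strand: actcagctccTGTTTACtaccaagtac
KLF6 +126244, chr10:3658980-3659006, minus strand: aaagagctccTGTTTACaaagtgactt
KLF4 -14988, chr9:107504690-107504716, minus strand: ttgaatttggTGTTTACttgacattta
KLF13 +78904, chr15:31405734-31405760, minus strand: ttccggggtcTGTTTACtcagcaggcc
In 7 of the 8 the base before the heptamer was C, and in the KLF4 copy it was G. Over all replicate 1 peaks, C preceded 942 of 4042 copies (23.3%) and T, absent before the 8 KLF copies, preceded 39.4%. The base after the heptamer was T in 6 copies, A in 1 and C in 1, where T followed 28.9% and A followed 46.3% of all copies. These flanking bases were compared after they were seen and carry no test. The middle of the heptamer was within 50 bp of the replicate 1 centre in 7 of 8, at 0 bp for KLF7, 4 bp for the KLF6 +30362 peak and 5 bp for KLF4. From the replicate 2 centres, the KLF7, KLF6 +30362, KLF4 and KLF13 copies lay further away, at 28, 33, 62 and 89 bp. The KLF6 +126244 copy and the KLF9 copies at +567, -6235 and -55900 lay closer, at 2, 7, 19 and 7 bp.

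The best shared peaks differed in what they held. The sequences below, on the plus strand of hg38, are those of the shared peak with the best mean percentile of KLF7, KLF5, KLF9, KLF2 and KLF6 at their replicate 1 coordinates, and of the KLF2 promoter peak, which scored higher in replicate 2, with the KLF7 and KLF5 peaks limited to the part upstream of the deposited TSS. Capitals mark TGTTTAC or its reverse complement GTAAACA, and TGANTCA, the site of AP-1 (the Fos and Jun factors), searched after the data had been seen.
KLF7 -15, chr2:207166187-207166306: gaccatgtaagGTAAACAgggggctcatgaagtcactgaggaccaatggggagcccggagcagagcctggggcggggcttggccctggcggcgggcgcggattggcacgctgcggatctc
KLF5 -17, chr13:73058670-73058791: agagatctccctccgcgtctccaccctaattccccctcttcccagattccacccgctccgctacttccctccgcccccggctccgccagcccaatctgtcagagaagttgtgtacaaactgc
KLF9 -6235, chr9:70420787-70420997: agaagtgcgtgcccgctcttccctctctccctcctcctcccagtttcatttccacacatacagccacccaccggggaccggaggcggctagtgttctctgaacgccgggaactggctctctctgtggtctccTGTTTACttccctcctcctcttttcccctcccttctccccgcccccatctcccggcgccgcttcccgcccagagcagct
KLF2 +5811, chr19:16330532-16330742: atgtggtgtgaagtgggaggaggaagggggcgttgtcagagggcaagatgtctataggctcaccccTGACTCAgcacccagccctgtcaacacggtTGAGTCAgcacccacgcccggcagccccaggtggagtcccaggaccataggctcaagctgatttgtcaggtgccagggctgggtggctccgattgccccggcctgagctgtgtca
KLF2 -247, chr19:16324474-16324684: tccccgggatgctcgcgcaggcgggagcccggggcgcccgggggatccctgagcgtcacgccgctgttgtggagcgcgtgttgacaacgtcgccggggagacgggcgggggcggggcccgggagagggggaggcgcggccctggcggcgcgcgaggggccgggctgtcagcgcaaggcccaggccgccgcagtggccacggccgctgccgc
KLF6 +30362, chr10:3754814-3755024: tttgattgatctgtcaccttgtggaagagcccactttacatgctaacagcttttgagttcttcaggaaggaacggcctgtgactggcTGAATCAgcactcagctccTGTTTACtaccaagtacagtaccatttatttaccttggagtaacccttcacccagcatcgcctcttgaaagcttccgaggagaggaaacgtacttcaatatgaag
The KLF7 and KLF9 sequences each hold 1 forkhead heptamer and no AP-1 site. The KLF2 +5811 sequence holds 2 AP-1 sites and no heptamer, the KLF2 promoter sequence holds neither, and the KLF6 sequence holds 1 of each. The KLF5 stretch holds neither, and the whole KLF5 peak also had no copy of either motif, nor of the first 6 letters of the heptamer.

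FOXK2 peaks were assigned to 7 of the 10 KLF genes in both replicates, KLF2, KLF4, KLF5, KLF6, KLF7, KLF9 and KLF13. Over all protein-coding genes, 5734 of 20052 had a peak in both (28.6%). KLF3 and KLF10 had peaks in replicate 2 only, and KLF11 had none in either. By coordinates, whatever the assigned gene, 8 of the 10 had a peak within 100 kb of the GENCODE start in both replicates, beside 68.1% of protein-coding genes. In each of the 7 genes at least 1 peak overlapped between replicates. The same share over all genes with a peak in both lists was not computed, and 74.9% of all replicate 1 peaks were overlapped. A promoter peak, by the deposited annotation class, was found in both replicates for KLF2, KLF5 and KLF7, 3 of 10 genes beside 9.30% of all protein-coding genes. In replicate 2 the promoters of KLF3, KLF10 and KLF13 also had a peak, 6 of 10 beside 21.2% of all protein-coding genes, and 3 of 10 had a promoter peak in replicate 1 beside 11.9%. For a peak of any class, 7 of 10 KLF genes in replicate 1 stood beside 31.3% and 9 of 10 in replicate 2 beside 51.7%.

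**Figure D1:**
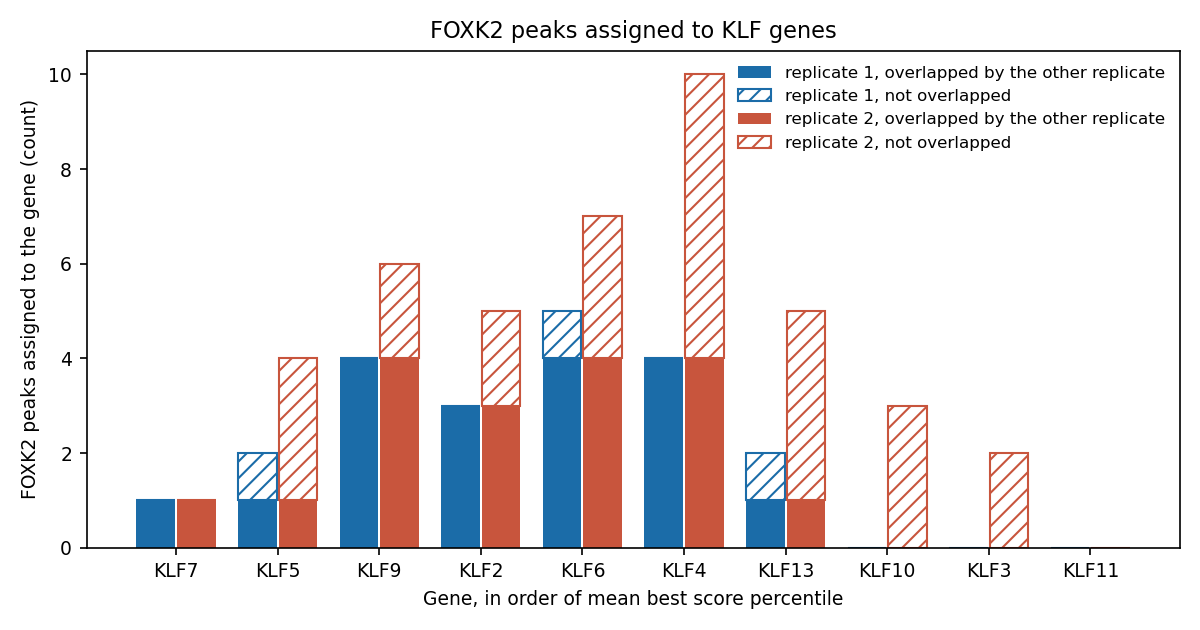
Number of FOXK2 peaks assigned to each KLF gene, by replicate, with filled bars for peaks overlapped by at least 1 bp by a peak of the other replicate and hatched bars for the others. KLF4 has 4 peaks in replicate 1 and 10 in replicate 2, of which 4 are overlapped, and KLF11 has no bar.

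The peaks that replicate 2 added had no partner in replicate 1. Of the 21 KLF peaks of replicate 1, 18 overlapped a peak of replicate 2 (85.7%, Wilson 95% interval 65.4% to 95%), beside 74.9% of all peaks of that list. Of the 43 KLF peaks of replicate 2, 18 overlapped a peak of replicate 1 (41.9%, 28.4% to 56.7%), beside 34.2% of all peaks. Both backgrounds lie within these intervals. The gap between the replicates moved with list length: with replicate 2 limited to its 12471 strongest peaks, 71.4% of the KLF peaks of replicate 1 and 68.2% of those of replicate 2 were overlapped, beside 60.0% of all peaks in each. Among KLF peaks at a score percentile over 50 in their list, all 12 of replicate 1 and 15 of 24 of replicate 2 were overlapped (all peaks, 90.7% and 57.5%). Among the weaker ones, 6 of 9 and 3 of 19 were overlapped (all peaks, 59.6% and 11.6%).

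The score of a peak, its HOMER peak score, is scaled to its own library, so each peak was ranked within its list and given as a percentile, where 100 is the strongest peak. The lists differ in length, so percentiles compare peaks within a list and depend on how many weaker peaks it holds. The strongest KLF peak was at KLF7, a family member known for its role in neurons. It lay 15 bp upstream of the deposited TSS in replicate 1 (chr2:207166096-207166306) and 43 bp upstream in replicate 2, and was the only peak of the gene in either list. Its score was 21.9 in replicate 1 (rank 220, percentile 98.2) and 46.3 in replicate 2 (rank 183, percentile 99.3). Both values were near the top of their lists. By GENCODE the peak centre was at -253 bp from the canonical KLF7 start, and the edge of the peak touched a UTR. The 3 genes outside the family most like KLF7, also with 1 peak in each list and the closest mean percentile among 2854 such genes in 2 replicates, were PER1, BROX and RBM48, within 0.0076, 0.0357 and 0.0522 percentile points.

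KLF5, an epithelial growth-associated member, had the next strongest peak, 17 bp upstream of the deposited TSS in replicate 1 (chr13:73058670-73058880) and 9 bp upstream in replicate 2. It scored 16.0 (rank 498, percentile 96.0) and 37.3 (rank 315, percentile 98.8). GENCODE places its centre at -230 bp from the canonical start. KLF5 had 1 further peak in replicate 1, at +108452, and 3 in replicate 2, at +80577, +151945 and +215252. None of these overlapped between the lists, and their percentiles ran from 22.2 to 49.1. The promoter was therefore the single recurring site among the peaks assigned to KLF5.

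KLF2, known from endothelial and lymphocyte biology, had a promoter peak and a downstream peak of nearly equal rank. The promoter peak at -247 (chr19:16324474-16324684) scored 10.6 in replicate 1 (percentile 86.9) and 18.7 in replicate 2 (percentile 93.1), and its centres were 2 bp apart. The downstream peak at +5811 (chr19:16330532-16330742), beyond the end of this gene of 3.86 kb, scored 11.3 (percentile 89.2) and 17.8 (percentile 92.0). The downstream peak was the stronger in replicate 1 and the promoter peak in replicate 2, so their order did not hold between replicates. The remaining shared peak, at -45584, scored 3.40 and 5.65 (percentiles 0.449 and 30.9), with centres 173 bp apart and 61 bp in common. None of the 3 held TGTTTAC. Both KLF2 peaks that did, at -31379 and +47058, were in replicate 2 only. The promoter peak held 5 copies of CCNCNCCC, a CACCC-type box of the kind that KLF proteins recognise, in a window of 80.1% GC.

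KLF6, a widely expressed member with a tumor suppressor role, had 5 peaks in replicate 1 and 7 in replicate 2, of which 4 were shared. None lay in its promoter. By number of peaks it ranked 52 among the 6275 protein-coding genes with a peak in replicate 1 and 140 among 10362 in replicate 2. Ties took the best place, and 115 and 227 genes, KLF6 included, had as many peaks or more. The best shared peak was at +30362 (chr10:3754814-3755024), downstream of the transcript, with scores of 8.3 and 12.3 (percentiles 75.6 and 81.3). Its focus ratio, the fraction of tags on the expected side of the centre, was 0.964 in replicate 1, the highest of the 21 KLF peaks there, and 0.85 in replicate 2, where the KLF9, KLF7, KLF2 and KLF13 peaks at -6246, -43, +5805 and +128786 had higher values (0.932, 0.896, 0.881 and 0.851). The next was at -18214, upstream, with scores of 6.98 and 11.5 (percentiles 64.0 and 77.9). The third, at +9827 near the transcript end, scored 6.23 and 9.52 (percentiles 54.9 and 68.0). The peak at +126244, in an intron of a noncoding RNA and holding a heptamer, scored 6.23 and 7.29 and was lower by rank in replicate 2 (percentiles 54.9 and 50). The peaks without a partner, 1 in replicate 1 and 3 in replicate 2, had percentiles from 0.449 to 73.9.

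KLF4 had 4 peaks in replicate 1 and 10 in replicate 2. By number of peaks it ranked 116 among 6275 genes in replicate 1 and 36 among 10362 in replicate 2. With ties, 255 and 53 genes, KLF4 included, had as many peaks or more. All 14 KLF4 peaks were classed as intergenic and none was within 8 kb of the TSS. The best shared peak was 261227 bp upstream (chr9:107750842-107751052), with scores of 5.85 and 12.3 (percentiles 49.1 and 81.3). The next, at -148360 and annotated as a CpG island, scored 5.85 and 8.92 (percentiles 49.1 and 64.1). Another at -221864 scored 4.34 and 7.88 (percentiles 17.0 and 55.8). The peak nearest to the TSS among those shared, at -14988, was the only one of them with a heptamer and was among the weakest of the list in replicate 1, scoring 3.58 (percentile 1.56) beside 7.88 in replicate 2 (percentile 55.8). By rank, 2 of the 4 shared KLF4 peaks stood higher in replicate 2, at -261227 (6145 and 5048) and -14988 (12178 and 11872), and 2 stood lower, at -148360 (6145 and 9640) and -221864 (10053 and 11872). In that list 3 of the distal peaks had a neighbour 878, 887 or 1084 bp away, which replicate 1 did not list. The 6 KLF4 peaks of replicate 2 without a partner had percentiles from 2.71 to 63.0.

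KLF3, the CtBP-binding member, had no assigned peak in replicate 1. In replicate 2 a promoter peak at -125 scored 7.58 (rank 12649, percentile 52.9) and an upstream peak at -42974 scored 8.48 (rank 10552, percentile 60.7). The promoter peak held 7 CACCC-type boxes and no heptamer, and the upstream peak held 1 heptamer.

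Among the SIN3A-binding members, KLF9, a glucocorticoid and thyroid hormone responsive gene, had 4 recurring peaks, 3 of them close to its TSS. It had 4 peaks in replicate 1 and 6 in replicate 2, and all 4 of replicate 1 were found again. The best, at -6235 (chr9:70420787-70420997), scored 13.6 (rank 813, percentile 93.4) and 30.5 (rank 516, percentile 98.1). A neighbour 765 bp closer to the TSS, at -5470 and annotated as a CpG island, scored 11.7 and 23.3 (percentiles 90.1 and 96.2). Another at +567 (chr9:70413985-70414195) lay in the UTR of exon 1 and scored 10.9 and 17.8 (percentiles 88.1 and 92.0). The fourth, at -55900 in an L2a repeat, scored 6.98 and 11.9 (percentiles 64.0 and 79.7). The deposited classes put none of these in a promoter, although 3 of them lay within 7 kb of the TSS. Of the 4, those at -6235, +567 and -55900 held a heptamer and those at -5470 and +567 held an AP-1 site. The replicate 2 peaks without a partner, at -64580 and -186653, each held a heptamer and were weak (percentiles 28.9 and 6.72).

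KLF13, known for its role in T lymphocytes, had 2 peaks in replicate 1 and 5 in replicate 2, of which 1 was shared. That peak at +78904 (chr15:31405654-31405864), in an HAL1ME repeat, scored 5.47 and 5.8, and was lower by rank in replicate 2 (percentiles 42.6 and 32.9). It held 1 heptamer. The strongest KLF13 peak of replicate 2, at +128786, scored 10.1 (percentile 71.7) and had no partner. A promoter peak at -282 was in replicate 2 only, with a score of 9.07 (percentile 65.2). The remaining KLF13 peaks had percentiles from 3.87 to 28.9. KLF10, a TGF-beta inducible member, had 3 peaks in replicate 2 only, of which the strongest, 74 bp upstream of a deposited TSS, scored 13.8 (rank 3968, percentile 85.3). Its centre was 1687 bp downstream of the GENCODE canonical start, in intron 1. The other KLF10 peaks, at -72673 and +19404, had percentiles of 54.4 and 24.5. KLF11, also TGF-beta inducible, had no peak in either list. Within 100 kb of its start by coordinates, replicate 1 had no peak and replicate 2 had 2, both assigned to other genes, at percentiles of 28.9 and 24.5.

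**Figure D2:**
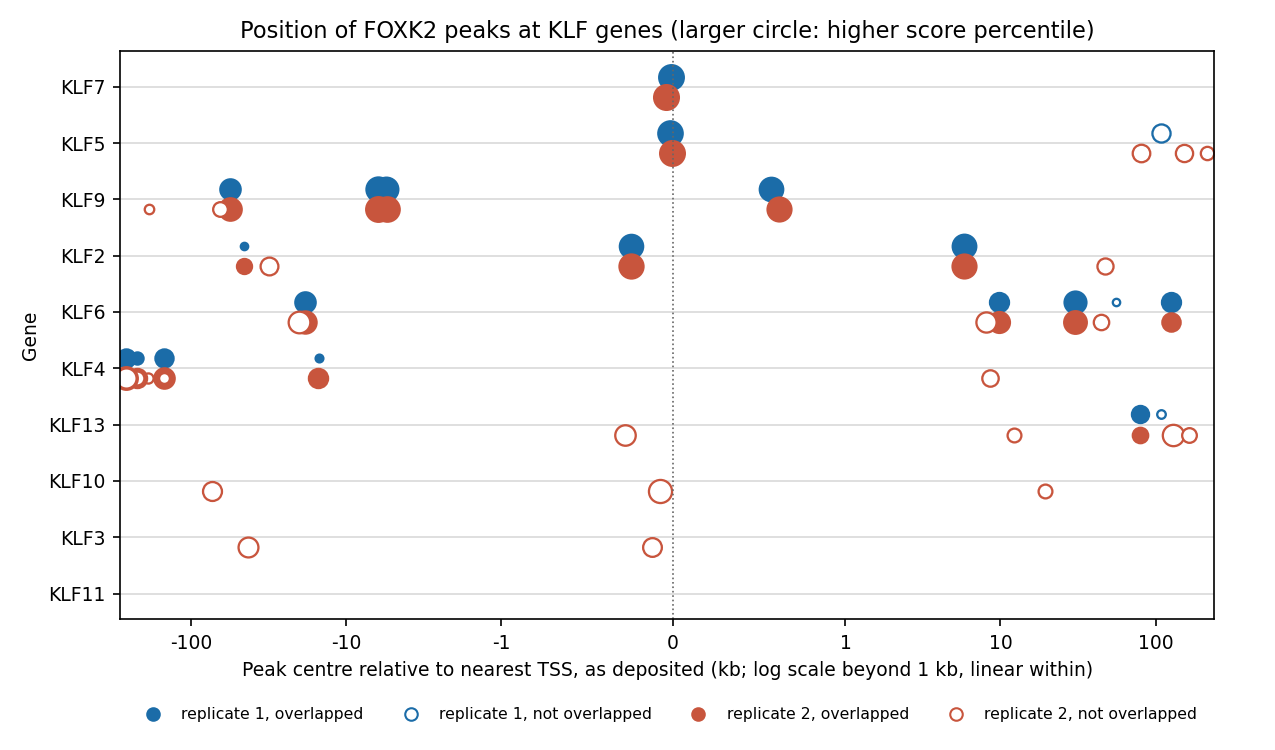
Distance of each KLF peak centre from the nearest deposited TSS in kb (log scale beyond 1 kb, linear within), with replicate 1 in blue above replicate 2 in red, filled circles for peaks overlapped by the other replicate and larger circles for higher score percentiles. The shared peaks of KLF7 and KLF5 lie at the TSS, those of KLF9 and KLF2 on both sides of it, and the 4 shared KLF4 peaks all lie upstream.

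Ordered by the mean of the best percentile in both replicates, the genes ran KLF7 (98.8), KLF5 (97.4), KLF9 (95.7), KLF2 (91.2), KLF6 (78.4), KLF4 (65.2) and KLF13 (57.1). The best percentile was higher in replicate 2, the longer list, for each of them, by 1.11, 2.89, 4.72, 3.83, 5.66, 32.2 and 29.1 points in the same order. Going down that order, the replicate ranges of percentiles of KLF7 and KLF5 overlapped, as did those of KLF5 and KLF9, of KLF6 and KLF4, and of KLF4 and KLF13. The ranges of KLF9 and KLF2 and those of KLF2 and KLF6 did not. By rank within each list the order was the same, apart from a tie of KLF6 and KLF4 in replicate 2. The best ranks were 220 and 183 for KLF7, 498 and 315 for KLF5, 813 and 516 for KLF9 and 1313 and 1870 for KLF2. KLF6 followed at 2960 and 5048, KLF4 at 6145 and 5048, and KLF13 at 6955 and 7625. The rank ranges of neighbours did not overlap, except that those of KLF6 and KLF4 met at 5048. With 2 values per gene these ranges are a description only.

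Across the 18 shared pairs, percentiles in the 2 replicates correlated with Spearman's rho of 0.930, beside 0.852 over all 9343 pairs. This is a description across peaks that share both libraries, and several lie at the same gene. The percentile was higher in replicate 2 for 16 of the 18 pairs, with a median difference of 6.13 points (range -9.70 to 54.2), and for 8348 of all 9343, with a median of 12.7. Percentiles depend on list length, and by rank the direction did not hold. As ranks, 6 of the 18 pairs stood higher in replicate 2 and 12 lower, beside 2984 higher and 6347 lower over all pairs. The KLF6 +126244 and KLF13 +78904 peaks were lower in replicate 2 by both measures. Centres of paired KLF peaks lay a median of 30.5 bp apart (2 to 173 bp), beside 29.0 bp for all pairs.

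**Figure D3:**
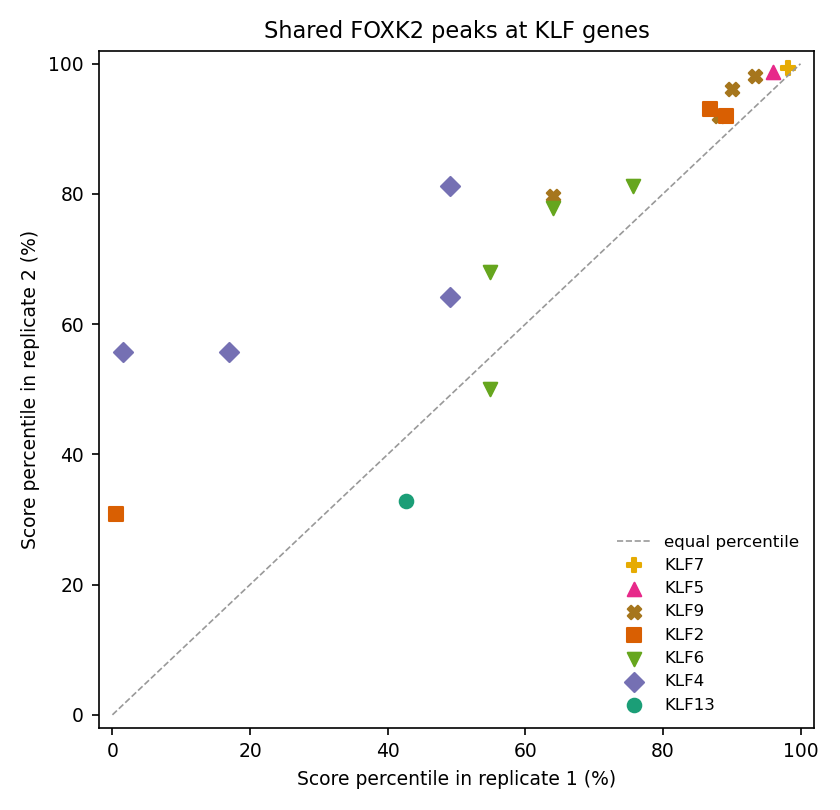
Score percentile of the 18 shared KLF peaks in replicate 1 (x axis, %) against replicate 2 (y axis, %), 1 symbol per gene, with a dashed line where they are equal. The KLF7 and KLF5 peaks sit at the top right, the 4 KLF4 peaks lie above the line by 15.0 to 54.2 points, and the KLF13 peak lies below it. Replicate 2 is the longer list, and by rank 12 of the 18 peaks stood lower there.

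The median percentile of KLF peaks was 54.9 in replicate 1 (0.449 to 98.2) and 55.8 in replicate 2 (2.71 to 99.3), beside 49.1 and 50 over all peaks. Those within 10 kb of the TSS, 8 and 13 peaks, had medians of 89.7 and 92.0, beside 54.9 and 58.3 for all peaks within that distance. Intergenic peaks made up 57.1% (Wilson 95% interval 36.5% to 75.5%) and 60.5% (45.6% to 73.6%) of KLF peaks, beside 34.1% and 36.5% of all peaks. All KLF4 peaks were intergenic, and without KLF4 the shares were 8 of 17 (47.1%, 26.2% to 69.0%) and 16 of 33 (48.5%, 32.5% to 64.8%), intervals that hold the backgrounds. Introns held 14.3% and 18.6% of KLF peaks, beside 39.0% and 40.6%. This class counts introns of any transcript, as for the KLF6 +126244 peak in a noncoding RNA. Promoters held 14.3% and 14.0%, beside 21.7% and 18.0%. The median distance from the TSS was 30362 bp and 44588 bp, beside 16139 bp and 20161 bp. Peaks beyond 100 kb made up 28.6% and 32.6%, beside 14.5% and 16.3%, and came in replicate 1 from KLF4, KLF5, KLF6 and KLF13. The peaks are not independent, since 14 of the 43 in replicate 2 were beyond that distance and 8 of these belonged to KLF4.

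The forkhead heptamer lay within 100 bp of the centre in 8 of 21 KLF peaks of replicate 1 (38.1%, 20.8% to 59.1%), beside 30.5% of all peaks, and in 16 of 43 of replicate 2 (37.2%, 24.4% to 52.1%), beside 28.2%. The backgrounds lie within both intervals. The shorter TGTTTA was in 42.9% and 44.2% of KLF peaks, beside 44.8% and 43.4% of all peaks. In control windows of the same width, placed 2000 bp to each side of KLF peaks, the heptamer was found in 0 of 42 in replicate 1 (up to 8.38%) and 4 of 86 in replicate 2 (4.65%), beside 2.88% and 2.89% around all peaks. Of the shared KLF peaks 8 of 18 held it (44.4%), beside 34.3% and 34.9% of all overlapped peaks. Promoter peaks held it less often in the lists at large, 14.4% and 10.9%, and KLF7 was the only KLF promoter peak with a copy, 1 of 3 in replicate 1 and 1 of 6 in replicate 2.

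AP-1 sites and CACCC-type boxes were searched after the data had been seen, on both strands, with N for any base. TGANTCA was in 7 of 21 (33.3%, 17.2% to 54.6%) and 11 of 43 KLF peaks (25.6%, 14.9% to 40.2%), beside 20.8% and 21.0% of all peaks, which lie within these intervals. In control windows beside KLF peaks it was in 11.9% and 5.81%, and beside all peaks in 6.02% in both replicates. CCNCNCCC was in 11 of 21 (52.4%, 32.4% to 71.7%) and 18 of 43 (41.9%, 28.4% to 56.7%), beside 28.5% and 26.0% of all peaks, which lie below these intervals. In control windows beside KLF peaks it was in 14.3% and 22.1%, and beside all peaks in 16.4% and 15.5%. The median GC of KLF windows was 51.7% and 47.8%, beside 47.3% and 46.3%, and its part in the CACCC-type share was not tested.

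**Figure D4:**
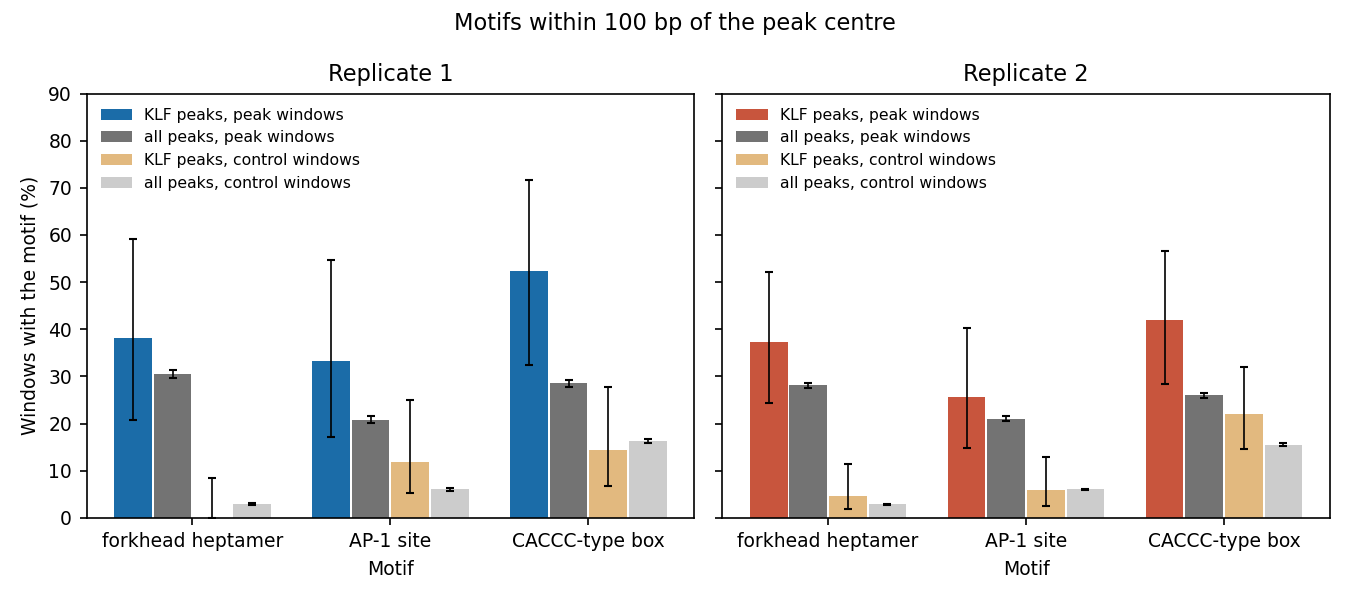
Share of windows (%) with each motif within 100 bp of the peak centre, for KLF peaks (21 in replicate 1, 43 in replicate 2) and all peaks, and for control windows 2000 bp to each side, with Wilson 95% intervals as error bars. For the forkhead heptamer the KLF bars of 38.1% and 37.2% have intervals that span those of all peaks.

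Of the other SP and KLF family genes, 7 of 17 had a peak in both replicates, KLF12, KLF15, KLF16, KLF18, SP1, SP8 and SP9, beside the 28.6% of protein-coding genes given above. All 7 had a peak that overlapped between replicates, a count for which no share over all genes was computed. The strongest was the KLF18 peak at -13175, with percentiles of 97.4 and 97.6 and 1 heptamer. The KLF15 intron peak at +1362 followed in replicate 2 (percentiles 75.6 and 91.2), with the SP8 peak at +41917 (79.3 in replicate 1, and 85.7 for the best SP8 peak in replicate 2). SP1, a ubiquitous activator, was the single gene of this group with a promoter peak in both lists (percentiles 61.9 and 80.2). KLF1, KLF8, KLF17, SP2, SP3, SP5 and SP7 had no peak. Among genes for proteins that act with KLF factors, 6 of 12 had a peak in both replicates, beside the same 28.6%. They were CTBP2 (corepressor), HDAC1 (deacetylase), CREBBP and KAT2B (acetyltransferases), and WWP1 and SMURF1 (ubiquitin ligases). HDAC1 had a promoter peak in both, at percentiles of 68.0 and 70.8. The best WWP1 peak, in an intron at +1644, held 1 heptamer (percentiles 78.1 and 87.6). The CTBP2 peaks did not overlap between the lists, and EP300 and FBXW7 had none. CTBP1 had 1 assigned peak, in its promoter in replicate 1 (percentile 21.9), which overlapped a replicate 2 peak assigned to another gene. SIN3A had 2 peaks in replicate 2 only.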

How the data were processed

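The peak lists of 2 biological replicates of FOXK2 ChIP-seq in OVCAR5 cells were used. According to the study's methods, the authors mapped single-end reads to hg38 with Bowtie2 2.2.6 and called peaks with HOMER 4.10. Each deposited list gives a peak score (scaled to its library), a focus ratio (a fraction of tags that the authors' software computed), an annotation class and the signed distance to the nearest TSS in bp. Whether input entered peak calling is not given in the sources used here. The study's methods name DESeq2 for enrichment statistics per peak, and its supplement gives p-values of target against input, which were not used here.

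Scores were whole multiples of a step in each list (0.1886 and 0.1487, within 0.006 for 100.0% of distinct scores below 10). If a step is 1 tag, the weakest listed peaks held 16 and 21 tags. The total depth is unknown. The distance from peak start to end was 210 and 256 bp.

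Peaks overlapping by at least 1 bp were called shared. Percentiles are ranks within a list, with ties at their mean rank. Shares carry Wilson 95% intervals, which cover counting error only. A single condition allowed no test. TGTTTAC was looked for on either strand up to 100 bp from each centre, and in control windows 2000 bp away. The hexamer TGTTTA is nested in it. TGANTCA and CCNCNCCC were added after seeing the data. GENCODE 44 gave transcript positions, and RefSeq GRCh38.p14 the gene table.

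The members, lists and alternatives were chosen with earlier results of these data known. Named were all 10 members with up to 3 best shared peaks, other peaks being named after their values were seen, the family and partner genes with a peak in both replicates, and the 3 genes most like KLF7. Alternatives covered score, list length, distance, overlap, motif window and each replicate, and the intergenic share without KLF4 was added after seeing the data. Simulated peaks and sequences with known answers were used to check the search for overlaps and motifs. The reads, H3K27Ac and RNA-seq data were not analysed here. Python 3.11.15, numpy 2.4.6, pandas 2.3.3, scipy 1.17.1 and matplotlib 3.10.9 were used.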

Additional observations from a re-analysis of the deposited data

Results flagged for a closer look

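Some peaks close to the KLF genes fell outside the annotation that chose the members, because the deposited files gave them to another gene. Within 100 kb of a KLF start by GENCODE, 10 peaks of replicate 1 and 15 of replicate 2 were of this kind. Of these, 8 in each list overlapped between replicates, beside 74.9% and 34.2% of all peaks. Upstream of KLF6, 5 and 6 of them were assigned to LOC105376365, and 5 in each list were shared. The strongest, at -66566 bp from the KLF6 start, had percentiles of 84.2 and 91.2, above the best peak assigned to KLF6 itself, and held 1 heptamer.

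A peak in intron 1 of KLF3 (chr4:38667022-38667232, 2928 bp downstream of the start) was assigned to the antisense gene KLF3-AS1. It had a score of 7.92 and rank 3303 in replicate 1 (percentile 72.8) and a score of 9.37 and rank 8868 in replicate 2 (percentile 67.1), and held 1 heptamer. By coordinates KLF3 thus had a shared peak, where the assigned gene names gave none.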

How the results depend on the processing

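Over 14 results, 51 of 67 values under other settings moved by less than their limit and 16 moved further. For a count the limit was 1.5 times, and for a share its Wilson interval. For a median it was 0.634 percentile points, the SD between both replicates. The 51 include values that could not move. Lists of equal length left replicate 1 whole, so its peak count, median and heptamer share there were fixed in advance. Of the medians and motif shares, 3 values changed side against all peaks treated alike: in replicate 2 the median in the higher-scoring part (48.5 beside 49.9) and the heptamer share in windows of 50 bp (20.9% beside 23.4%), and in replicate 1 the share with the hexamer TGTTTA (42.9% beside 44.8%, and in replicate 2 44.2% beside 43.4%). With only peaks within 10 kb of the TSS, KLF peaks fell to 8 and 13, and their median percentile rose to 89.7 and 92.0. The heptamer share of replicate 2 fell there to 23.1% (20.1% of all peaks there). In that setting 3 of the 17 other SP and KLF genes had a peak in both replicates, and the share of all genes was not computed. Within 100 kb, the medians were 75.6 and 63.0. In the higher-scoring part of each list (6553 and 13833 peaks), replicate 2 had 25 KLF peaks, and the medians were 53.6 and 48.5. With replicate 2 limited to its 12471 strongest peaks it had 22 KLF peaks, with a median of 53.6 and an overlapped share of 68.2% (60.0% of all peaks). By coordinates within 100 kb, 8 KLF genes had a peak in both lists, with KLF3 added (68.1% of protein-coding genes). Replicate 2 alone had one at all 10, but the share of all protein-coding genes was not computed for that list alone. That count therefore has no background and is a description only.

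With replicate 1 alone, 7 of 10 KLF genes, 7 of 17 other SP and KLF genes and 7 of 12 partner genes had a peak, beside 31.3% of protein-coding genes. With replicate 2 alone these counts were 9, 10 and 9, beside 51.7%. A promoter peak was at 3 KLF genes in replicate 1 and 6 in replicate 2, beside 11.9% and 21.2%. No paired analysis was possible because there is a single condition and no value of the inputs entered. The unknown total depth limits any statement on genes with no listed peak.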

Other observations

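The stretch of genome for which a KLF gene is the nearest protein-coding gene differs widely in size, and so do peak counts. Taking the midpoints between neighbouring protein-coding starts as limits, KLF6 held 827 kb with 16.9 and 29.0 peaks per Mb in replicates 1 and 2, and KLF2 held 137 kb with 21.9 and 36.5, beside 4.04 and 8.83 over the genome of 3088 Mb. KLF4, with the most assigned peaks in replicate 2, held 786 kb with 6.36 and 15.3 peaks per Mb. KLF7, with the strongest peak, held 295 kb with 3.39 and 10.2. KLF11 had the smallest stretch, 64.4 kb, and no peak in it.

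In the RefSeq promoter windows (300 bases around the start, GRCh38.p14), 8 of the 10 KLF genes were matched, and KLF3 and KLF10 were not. None of the 8 held TGTTTAC, beside 4.19% of 27305 genes, and only KLF9 held the shorter TGTTTA, in 2 copies, beside 14.7%. CCNCNCCC was in 7 of the 8 (87.5%), all but KLF9, beside 58.9%. The KLF7 heptamer under the peak shared 1 base with the edge of a window of this gene, so it was not counted.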
